A study of Homo sapiens with 2 samples.

Results

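The TGF-beta and BMP pathway genes examined here are 42 listed genes that encode ligands, receptors, extracellular inhibitors, SMAD proteins, inhibitors inside the cell and direct targets of this signalling family. They were chosen by name, outside chromosome 10, with earlier results of these data known. A named feature was found on the arrays for 23 of the 42, out of 14812 named genes in all, and each of the 23 rested on 1 feature. RNA came from MCF-10A, an established, non-tumorigenic line of human mammary epithelial cells. One sample stably expressed the EGFP vector alone, so a fluorescent protein without a fusion partner, and the other stably expressed EGFP-ARHGAP4, the same protein fused to ARHGAP4, a GTPase-activating protein. The sources used here do not say whether each line was a clone or a pool, or which promoter drove the construct. There was 1 array of each line, so no difference below has a replicate check, an error between replicates or a p-value, and what differs between these 2 cultures for other reasons cannot be told apart from the fusion protein.

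TGF-beta, activins and BMPs are secreted dimers that bring together type I and type II receptor kinases, often with the help of co-receptors such as endoglin. The type I receptor phosphorylates receptor-regulated SMADs: SMAD2 and SMAD3 act mainly for TGF-beta and activin, and SMAD1, SMAD5 and SMAD9 mainly for BMPs. These join SMAD4, enter the nucleus and regulate genes that include their own inhibitors SMAD6 and SMAD7. In mammary epithelium TGF-beta is known for growth arrest and for loss of epithelial character.

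Values are log2 expression as deposited, and the EGFP vector array is called the control array and the EGFP-ARHGAP4 array the fusion array. Where a gene has a pair of values, the control array comes first, and a difference is always fusion minus control on the log2 scale. ARHGAP4 itself stood at 4.49 in the control array and 6.68 in the fusion array, a 4.56-fold difference in the direction of the labels. The median over all 44629 features was 2.88 in both arrays. A level of 4.02, the median of all gene-level values, is used below as a guide to low signal, since differences narrow towards background. Of 16 listed mammary epithelial markers 9 were measured, and 8 of the 9 lay at or above that level in each array. By at least 0.5, 2 of the 9 were higher and 1 lower, or 22.2% and 11.1%, against 4.25% and 6.47% of all named genes. KRT14, a basal keratin, differed by -2.25, the adhesion gene EPCAM by 1.20 and the desmosomal cadherin gene DSG3 by 0.71. KRT14 was the only 1 of the 9 below 0. KRT5 differed by 0.02, SFN by 0.02, KRT18 by 0.08, EGFR by 0.16, KRT8 by 0.36 and KRT19 by 0.41. None of 4 measured fibroblast markers and 1 of 5 endothelial markers reached the level in either array. Of 6 measured immune markers 4 did, in each array, and the mean log2 value of the 6 was 4.49 and 4.94. LAPTM5, a lysosomal protein of blood cells, was higher by 2.05, and without it the means of the other 5 were 4.50 and 4.62. Of these, CD68 differed by 0.48, CSF1R by 0.496, CD14 by -0.35, LYZ by -0.01 and SPI1 not at all. CSF1R and LYZ lay below 4.02 in both arrays. Defining immune genes such as PTPRC were not analysed here, and the part of any such difference in the values below was not tested. Across all genes with several features at that level (324 genes), the pooled SD of the difference between features of 1 gene was 0.19. That figure describes agreement within these 2 arrays, not between cultures.

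Of the 23 measured pathway genes, 2 were lower by at least 0.5 in the fusion array and none was higher by that much. The 2 were FSTL1 and ENG. In RNA from a whole culture, fewer cells with a transcript and less of it per cell cannot be told apart. Over all named genes 6.47% were lower and 4.25% higher by at least 0.5, so that 2 of 23, or 8.7%, is a share near the background. A difference of at least 1, which is 2-fold, was found for FSTL1 alone, against 0.486% of all named genes lower by that much and 0.581% higher. The members' median was -0.16, and it was -0.096 after quantile normalization and -0.091 after a loess correction for level. The median of all named genes was -0.03 as deposited, and -0.0033 and -0.0059 after these 2 corrections. Over those with a mean at or above 4.02 it was -0.10 as deposited, and -0.0155 and -0.0086 after them. At that level lay 17 of the 23 members, with a median of -0.19 as deposited. Of the members 16 were below 0, or 69.6%, 6 were above 0 and BMP6 was identical in both arrays. Below 0 were 52.9% of all named genes, and 61.8% of those with a mean over both arrays at or above 4.02, where 13 of 17 members were. Of those 17, 2 were lower by at least 0.5, beside 9.56% of all genes at that level, and none was higher, beside 4.49%. In all, 10 members differed by less than 0.19, the SD between features of 1 gene. That SD came from genes with a mean at or above 4.02, and 6 of the 23 members had a lower mean. The share of all named genes that differed by less than 0.19 was not counted, so 10 of 23 has no background beside it.

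**Figure D1:**
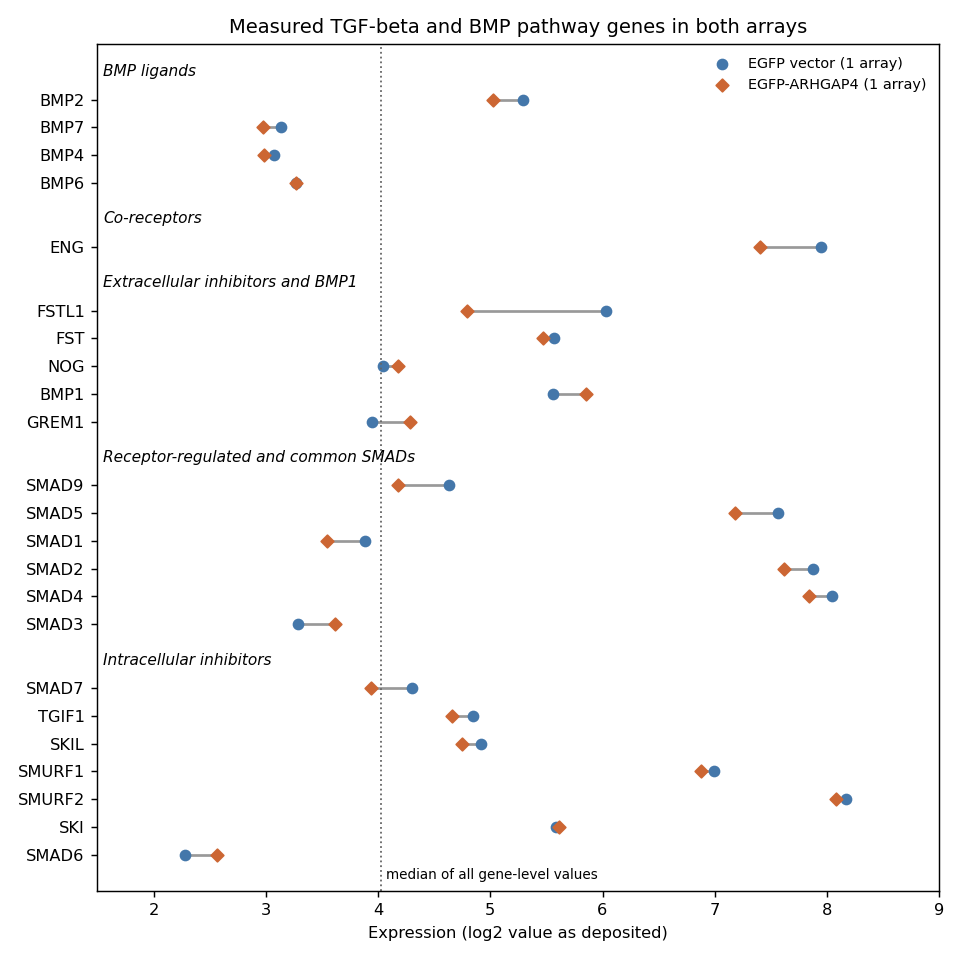
Log2 expression of each of the 23 measured pathway genes in the control (EGFP vector) array as circles and the fusion (EGFP-ARHGAP4) array as diamonds, grouped by role, with 1 array per line and a dotted line at 4.02, the median of all gene-level values. The widest gaps are those of FSTL1 (6.03 and 4.79) and ENG (7.95 and 7.41), and the other 21 genes differ by less than 0.5.

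Among the ligands only BMPs were measured. BMP2, a potent inducer of bone and a regulator of epithelial fate, stood at 5.29 in the control array and 5.02 in the fusion array, a difference of -0.27. The other BMP ligands lay below 4.02 in both arrays, so their differences carry little weight. BMP4 stood at 3.08 and 2.99, BMP7 at 3.13 and 2.98, and BMP6 at 3.27 in both. BMP6 belongs to the 6.96% of features that are equal in both columns to the last digit. The TGF-beta ligand genes TGFB1, TGFB2 and TGFB3 and the activin subunit genes INHBA and INHBB were not analysed here.

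ENG encodes endoglin, a co-receptor that binds TGF-beta and BMP ligands and is best known from endothelial cells. Its value was 7.95 in the control array and 7.41 in the fusion array. The fusion array was the lower, 1.46-fold, and ENG ranked 765 from the lowest of 14812 genes by difference. The difference of -0.54 lay just past the size that counted, and it was -0.44 after quantile normalization and -0.42 after loess. Of the 5 endothelial markers measured, VWF, TIE1, ERG and EMCN lay below 4.02 in both arrays, and CLDN5 stood at 4.31 and 4.32. The other co-receptor, TGFBR3, and the signalling receptors TGFBR1, TGFBR2, ACVR1, ACVR1B, ACVR2A, ACVR2B, BMPR1B and BMPR2 were not analysed here.

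FSTL1, a secreted glycoprotein of the follistatin family that binds BMP4 and dampens BMP signalling, differed most. Its level was 6.03 in the control array and 4.79 in the fusion array, above 4.02 in both. The fusion array was 2.36-fold lower, and FSTL1 ranked 22 from the lowest of 14812 genes by difference. The difference of -1.24 became -1.16 after quantile normalization and -1.15 after loess.

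The other secreted inhibitors did not follow FSTL1. FST, follistatin, which traps activins, stood at 5.57 and 5.47, a difference of -0.10. GREM1, gremlin, which traps BMP2 and BMP4, stood at 3.94 in the control array and 4.28 in the fusion array. NOG, noggin, another trap of BMPs, stood at 4.05 and 4.18. GREM1 was thus higher by 0.34 and NOG by 0.13, both close to 4.02. BMP1, despite its name a metalloprotease that matures collagen and cleaves the BMP antagonist chordin, stood at 5.56 and 5.85, higher by 0.29.

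All 8 SMAD genes were measured, and 6 were lower and 2 higher in the fusion array, none of them by 0.5. The BMP-branch SMADs were all lower. SMAD9 stood at 4.63 in the control array and 4.18 in the fusion array, SMAD5 at 7.57 and 7.18, and SMAD1 at 3.89 and 3.54. Their differences were -0.45, -0.39 and -0.34, and SMAD1 lay below 4.02 in both arrays. In the TGF-beta branch SMAD2 stood at 7.88 and 7.61, a difference of -0.26. SMAD3, its close relative, stood at 3.28 and 3.61, higher by 0.33 but below 4.02 in both arrays. SMAD4, the partner common to both branches, stood at 8.04 and 7.84, a difference of -0.20. SMAD genes share sequence within each branch, so a feature could take up RNA of a relative.

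The median difference of the 6 receptor-regulated and common SMADs was -0.30. It was -0.22 after quantile normalization and -0.21 after loess. Each of the 6 kept its sign under both, with SMAD4 reduced to -0.10 and -0.08. The difference of each branch from the other was not tested.

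The inhibitory SMADs went opposite ways. SMAD7, which blocks type I receptors of both branches, stood at 4.30 in the control array and 3.94 in the fusion array, a difference of -0.37. SMAD6, which blocks mainly BMP signals, stood at 2.28 and 2.57, a difference of 0.29 far below 4.02. The SMAD6 feature is annotated to a non-coding RefSeq transcript of the gene, so it may not report the coding RNA.

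The remaining inhibitors inside the cell differed little. SMURF1, a ubiquitin ligase that marks SMADs and receptors for destruction, stood at 6.99 and 6.87, and its relative SMURF2 at 8.17 and 8.08. SMURF2 was at -0.09 as deposited but at 0.02 after quantile normalization and 0.03 after loess, the only member whose sign turned under either. SKI, a corepressor that binds SMAD complexes, stood at 5.58 and 5.62, and its relative SKIL at 4.92 and 4.75. TGIF1, a homeodomain corepressor of SMAD2, stood at 4.84 and 4.66. The median of the 7 measured inhibitors was -0.12 as deposited, -0.03 after quantile normalization and -0.0014 after loess. PMEPA1, a feedback inhibitor induced by TGF-beta, and the target genes ID1, ID2, ID3 and ID4 were not analysed here.

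**Figure D2:**
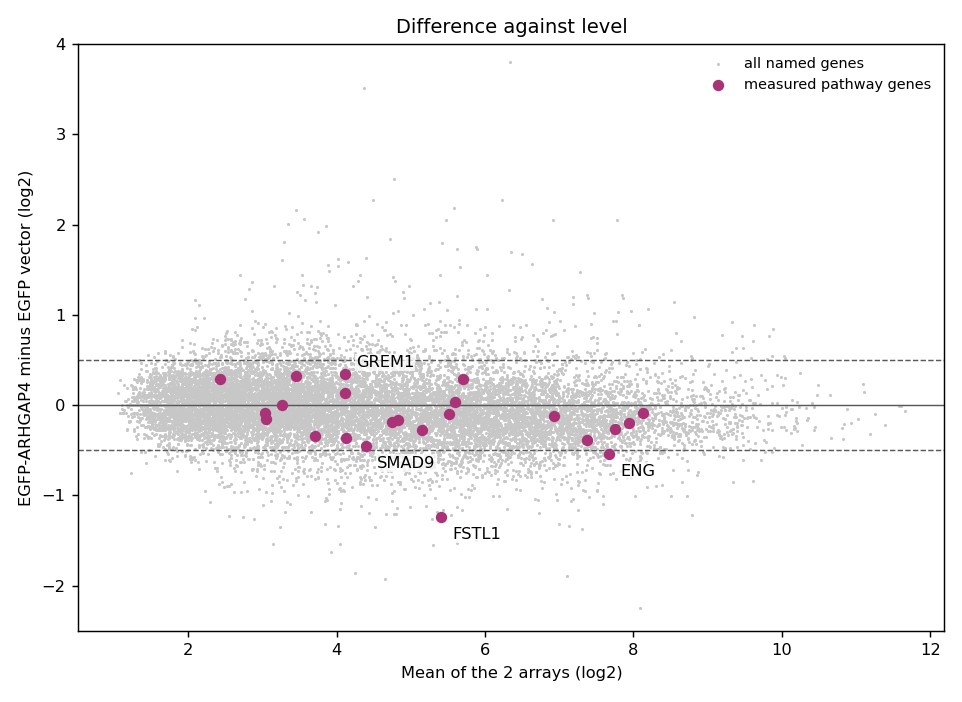
Difference, fusion minus control array, against the mean log2 value of the 2 arrays for all 14812 named genes (grey) and the 23 measured pathway genes (purple), with dashed lines at a difference of 0.5 either way. FSTL1 at -1.24 lies at the lower edge of genes of its level, ENG at -0.54 lies just past the dashed line, and the other pathway genes lie within the dense part of the cloud.

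Neighbouring genes give a further reading, because parts of chromosomes differed between the arrays as blocks. For each member the 24 nearest named genes were taken, 12 on each side. Their median difference lay between -0.22 and 0.07 for all 23 members, so none sat in a block that differed by 0.5. FSTL1, on chromosome 3, was at -1.24 where its neighbours had a median of -0.06, with quartiles of -0.27 and 0.06. ENG, on chromosome 9, was at -0.54 where its neighbours had a median of 0.07, with quartiles of -0.08 and 0.22. Both were thus lower than the genes around them. GREM1, on chromosome 15, was at 0.34 beside a neighbour median of -0.22, a gap of 0.56 that would pass the size that counted.

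The 8 SMAD genes all lay outside the quartiles of their neighbours, 6 below and 2 above. Over all members 13 of 23 did, or 56.5%, and over all named genes with 24 neighbours 53.9%, so the members as a whole were near the background. Of the 15 members other than SMADs, 5 lay outside. SMAD2, SMAD4 and SMAD7 share a stretch of chromosome 18 and hence many of the same neighbours, with medians of 0.01, 0.01 and -0.03. SMAD3 and SMAD6 lie near each other on chromosome 15 and share a neighbour median of -0.07. The count was made after the values were seen and describes these 2 arrays. Relative to neighbours the members' median was -0.040, with 13 lower and 10 higher than the genes around them.

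**Figure D3:**
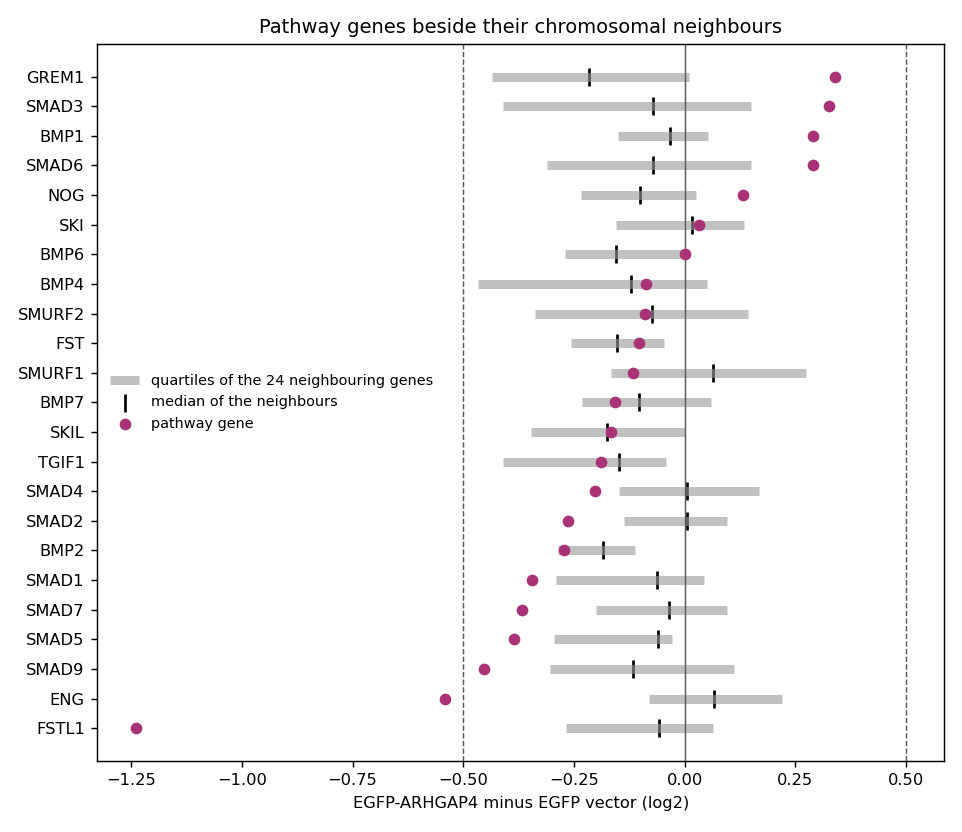
Log2 difference, fusion minus control array, of each measured pathway gene (purple) beside the median (black tick) and quartiles (grey bar) of its 24 nearest named genes on the chromosome, with dashed lines at 0.5 either way. FSTL1 and ENG lie well to the left of their neighbours, and GREM1, SMAD3, BMP1, SMAD6 and NOG lie to the right of theirs.

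Promoter sequence was read for the members from RefSeq windows of GRCh38.p14, which hold 18 of the 23 measured genes. BMP1, BMP2, BMP7, SKI and NOG were not among them. The 250 bases before each listed start were searched on both strands for 3 boxes that SMAD proteins are known to bind, none of which contains another. The first was the palindrome GTCTAGAC, the second CAGACA, known as the CAGA box, and the third GGCGCC, a GC-rich box of BMP SMADs. The promoters of FSTL1 and ENG are printed because these 2 genes differed by 0.5 or more, and that of SMAD6 because it alone among the 18 held the palindrome. Capitals mark the boxes found.
FSTL1, chr3:120450993-120451242, minus strand: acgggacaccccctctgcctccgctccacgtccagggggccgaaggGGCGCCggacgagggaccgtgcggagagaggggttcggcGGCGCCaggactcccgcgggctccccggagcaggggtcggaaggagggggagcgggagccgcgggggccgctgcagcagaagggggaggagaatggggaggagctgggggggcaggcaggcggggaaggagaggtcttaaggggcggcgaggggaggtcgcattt
ENG, chr9:127854659-127854908, minus strand: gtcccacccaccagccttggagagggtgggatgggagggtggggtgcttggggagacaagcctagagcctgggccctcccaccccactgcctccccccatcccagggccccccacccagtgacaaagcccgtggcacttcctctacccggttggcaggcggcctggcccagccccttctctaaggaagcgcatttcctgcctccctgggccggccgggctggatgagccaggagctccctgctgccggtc
SMAD6, chr15:66701986-66702235, plus strand: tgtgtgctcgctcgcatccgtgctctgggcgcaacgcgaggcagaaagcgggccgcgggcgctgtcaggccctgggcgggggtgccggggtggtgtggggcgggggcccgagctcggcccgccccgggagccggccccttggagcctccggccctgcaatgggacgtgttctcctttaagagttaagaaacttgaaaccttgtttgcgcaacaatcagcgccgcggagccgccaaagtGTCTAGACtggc

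The SMAD6 palindrome began 12 bases before the start. In FSTL1 the GC-rich box began 204 and 165 bases before the start, and in ENG none of the 3 boxes was found in this window. The palindrome stood in 0.182% of all 35116 promoter windows and in 1 of 38 windows of members, since several genes have more than 1 listed start. The CAGA box stood in 13.6% of all windows and 6 of 38, or 15.8%, of the members' windows, those of BMP4, GREM1, SMAD3 and TGIF1. GGCGCC stood in 16.4% of all windows and 10 of 38, or 26.3%, of the members', from 8 genes that include FSTL1, SMAD1, SMAD2 and SMAD4. A match describes the letters and not a binding site. FSTL1 with -1.24, SMAD3 with 0.33 and GREM1 with 0.34 all hold GGCGCC and differ in direction.

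The rest of the pathway was read from 6 further lists of 107 genes, of which 79 were measured. Of these 6 were higher by at least 0.5, or 7.59% against 4.25% of all named genes, and 3 were lower, or 3.8% against 6.47%. Their median was -0.02, and that of all named genes -0.03.

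In the list of other ligands 18 of 21 genes were measured, with a median of 0.01. By 0.5 or more 2 were higher and 1 lower, or 11.1% and 5.56%, against 4.25% and 6.47% of all named genes. GDF15, a distant member of the superfamily that is secreted under stress and signals through GFRAL, stood at 5.88 in the control array and 7.94 in the fusion array. It was 4.16-fold higher, while its neighbours had a median of 0.07. GFRAL, its receptor gene, had equal values far below 4.02 in both arrays. GDF11, a ligand that signals through SMAD2 and SMAD3, stood at 4.50 and 3.91, a difference of -0.59. BMP8B, named after its values were seen, was higher by 0.79 but below 4.02 in both arrays. GDF15 aside, no ligand gene at or above 4.02 in both arrays differed by 0.5.

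Of 10 other receptor and co-receptor genes only ACVRL1, GFRAL and HJV were measured, all below 4.02 in both arrays and none differing by 0.5. Their median was 0.13.

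Of the genes that hold TGF-beta latent or release it 17 were measured, and 12 were above 0, or 70.6% against 41.6% of all named genes. By 0.5 or more 3 were higher, or 17.6% against 4.25%, and none was lower. The median of 0.14 was 0.24 after quantile normalization and 0.23 after loess, but 0.015 over the genes with a mean at or above the 0.75 quantile of level. LTBP2, a latent TGF-beta binding protein of the matrix, stood at 4.53 and 5.32, and its 2 features differed by 0.95 and 0.63. LTBP3, which is secreted bound to latent TGF-beta, stood at 5.60 and 6.16. BGN, the proteoglycan biglycan, stood at 4.37 and 4.97. Their differences were 0.79, 0.56 and 0.60, where neighbour medians were -0.05, 0.03 and -0.02. LTBP1 stood at 8.25 and 8.26, so the family did not move as a whole.

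Of 9 measured other antagonists 1 was lower by 0.5, or 11.1% against 6.47% of all named genes, and none was higher, against 4.25%. Their median was -0.07. TWSG1, twisted gastrulation, which binds BMPs together with chordin, stood at 7.97 and 7.03. It was 1.91-fold lower, with a neighbour median of -0.08 on chromosome 18. FSTL3, a relative of follistatin, stood at 7.06 and 6.82, and CRIM1, a membrane protein that binds BMPs, differed by -0.20.

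Of 17 measured other SMAD regulators 14 were below 0, or 82.4%, with a median of -0.14. That median was -0.07 after quantile normalization and -0.05 after loess, where that of all named genes was -0.0033 and -0.0059. Below 0 were 52.9% of all named genes and 61.8% of those with a mean at or above 4.02. Only BAMBI passed 0.5, or 5.88% against 6.47% of all named genes lower by that much. BAMBI, a decoy receptor, was at 3.77 and 3.17, a difference of -0.60. It lies on chromosome 10, where its neighbours had a median of -0.54, and it was named after its values were seen. IPO7, an importer of SMADs into the nucleus, was at 9.85 and 9.43, and WWP1, a ubiquitin ligase, at 7.72 and 7.25. Of 15 transcription partners of SMADs 8 were below 0, or 53.3%, near the share of all named genes, with a median of -0.04. Only ATF3, at 3.39 and 3.89, reached 0.5, or 6.67% against 4.25% of all named genes higher by that much.

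**Figure D4:**
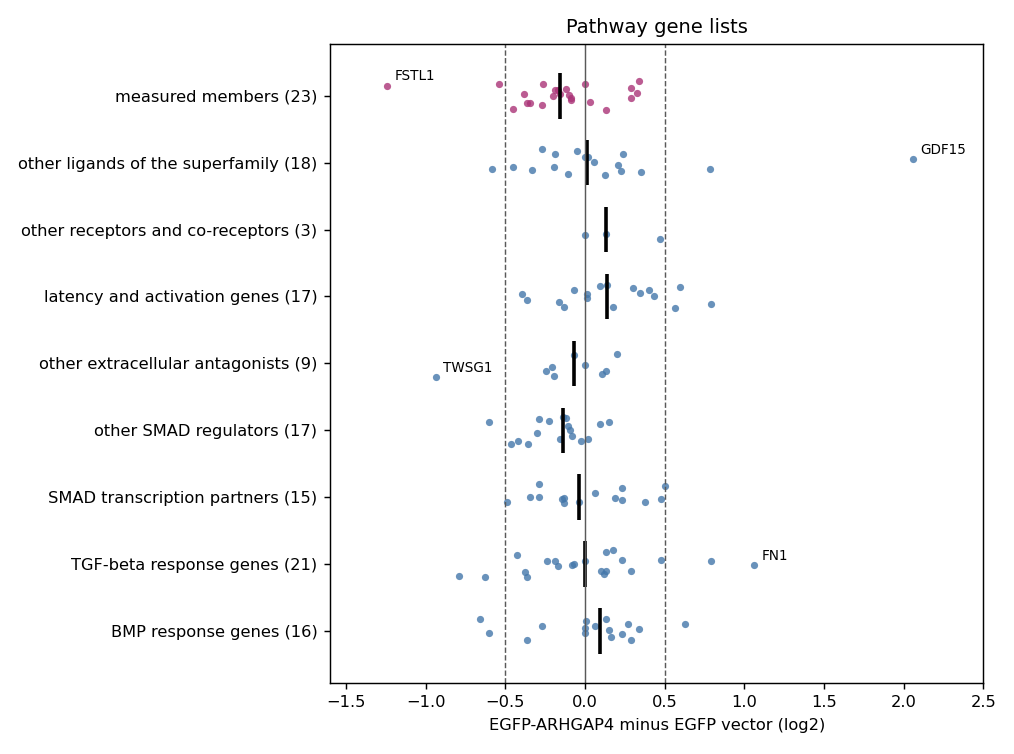
Log2 difference, fusion minus control array, of each measured gene in the members' list and in 8 further pathway lists, with the number measured in brackets, black bars at the medians and dashed lines at 0.5 either way. FSTL1, TWSG1, GDF15 and FN1 stand farthest from 0, and every median lies between -0.16 and 0.14.

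Genes known to respond to TGF-beta were as often above 0 as below. Of 39 listed 21 were measured, with a median of 0.00, beside -0.03 for all named genes. Below 0 were 10 and above 0 were 10, 47.6% each, against 52.9% and 41.6% of all named genes. By at least 0.5, 2 were higher and 2 lower, 9.52% each, against 4.25% and 6.47% of all named genes. FN1, fibronectin, stood at 7.66 in the control array and 8.72 in the fusion array, 2.09-fold higher, and LTBP2 was the other gene higher. LOX, lysyl oxidase, which crosslinks collagen, stood at 5.93 and 5.30, a difference of -0.63. ZEB1, a repressor of epithelial genes, stood at 3.88 and 3.09, below 4.02 in both arrays, and lies on chromosome 10 where its neighbours had a median of -0.59. It was named after its values were seen. Without the members SMAD7 and SKIL the median of the other 19 genes was 0.10.

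Widely used TGF-beta reporters, named after their values were seen, were split. CCN2, connective tissue growth factor, has a feature at 6.12 and 5.64 and another at 1.83 and 1.57. KLF10, an early response gene, stood at 7.22 and 7.70, THBS1, thrombospondin, at 8.64 and 8.82, and SNAI2, an EMT transcription factor, at 10.11 and 9.87. None of these differed by 0.5.

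Of 21 listed genes known to respond to BMPs 16 were measured. Above 0 were 10 of them, or 62.5% against 41.6% of all named genes, and 4 were below 0, with a median of 0.10, or 0.04 over the 12 that are not members. Over the genes with a mean at or above 4.02 the median was 0.035. SMAD6, ATOH8, HEY1 and RUNX2, all above 0, lay below 4.02 in both arrays, as did DLX5 and BAMBI, both below 0. By at least 0.5, 1 of the 16 was higher and 2 were lower, or 6.25% and 12.5%, against 4.25% and 6.47% of all named genes. MSX2, a homeobox gene induced by BMPs, stood at 4.019 in the control array, just under the unrounded level of 4.022. In the fusion array it stood at 4.64, higher by 0.63. The 2 genes lower by 0.5 were GATA3, a luminal transcription factor, at 5.37 and 4.71, and BAMBI. Both lie on chromosome 10, and the neighbours of GATA3 had a median of -0.52. Without chromosome 10, an alternative chosen after seeing the data, no BMP response gene was lower by 0.5, 10 of 14 were above 0 and 2 below, and the median was 0.14.

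A list of 13 pathway and neighbouring-pathway genes of chromosome 10 was measured for 8, with a median of -0.13. By at least 0.5, 2 were higher and 2 lower, 25% each, against 4.25% and 6.47% of all named genes. NRP1, a co-receptor that also binds TGF-beta, stood at 5.61 and 3.68, and its neighbours had a median of -0.63. DKK1, a Wnt inhibitor, stood at 7.44 and 8.49, with a neighbour median of 0.11. FGFR2, a growth factor receptor named after its values were seen, stood at 3.37 in the control array, a low signal, and 4.02 in the fusion array. It was higher by 0.65, and BAMBI was the other gene lower by 0.5. The other chromosome 10 ligands, GDF2, GDF10 and NODAL, lay below 4.02 in both arrays.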

How the data were processed

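RNA of 2 samples was measured on 1 Affymetrix array each, after whole-transcript amplification and biotin labelling, per the labels' protocols. The deposited table holds 1 normalized log2 value per feature and array for 44629 features; the sources used here state neither software nor summarisation nor normalization. That the base is 2 was read from the values, whose maximum of 12.8 exceeds 11.1, the natural log of a 16-bit reading. A common scaling before deposit would remove overall differences in RNA content. No detection calls were used. The platform annotation of the array gave 1 symbol to 15835 features, several to none and no symbol to 28794, and all 15835 matched GRCh38.p14 RefSeq genes by Entrez identifier. Features of a symbol were averaged in each array. No level filter was set for counts. With 1 array per group no test was run; sizes of 0.5 and 1 on the log2 scale were counted beside all named genes. The members, lists, sizes and alternatives were chosen with earlier results of these data known. The text names all measured members, ARHGAP4, and from each other list every gene with a difference of at least 1 plus up to 4 others of at least 0.5 with a mean at or above 4.02; further names are background or were chosen after their values were seen. Alternatives were quantile normalization, median centring, loess (span 0.3), the highest feature, filters on mean level, a 1.5-fold size, subtraction of neighbours and, added later, leaving out chromosome 10. The array number limits the precision. Calculations used Python 3.11.15 (numpy 2.4.6, pandas 2.3.3), statsmodels 0.14.6 for loess and matplotlib 3.10.9 for figures, and were tested on simulated data.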

Additional observations from a re-analysis of the deposited data

How the results depend on the processing

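Median centring changed nothing because the median difference of all features was 0, and the highest feature could not change a member because each rests on 1 feature, so neither bears on the members' stability. The 2 members lower by 0.5 became 1 after quantile normalization, loess, a 1.5-fold size or a filter at the 0.75 quantile of level; FSTL1 was the remaining gene under the first 3 and ENG under the last, which left out FSTL1, so that 0 members were lower by 1. Relative to chromosomal neighbours 1 member, GREM1, was higher by 0.5 and the members' median was -0.040. After quantile normalization or loess the sign of 2 of 46 member values turned, both of SMURF2, and none moved by more than 0.19. The members' median was -0.096 and -0.091, and that of all named genes -0.0033 and -0.0059. Of all named genes past 0.5, 39.6% were higher as deposited, 52.1% after quantile normalization and 52.4% after loess. With the filter at the 0.75 quantile the TGF-beta response genes had a median of 0.20, with 1 higher and 0 lower by 0.5. No BMP response gene was left to count, and the other pathway genes had a median of -0.14, with 1 higher and 1 lower. The list genes left and the shares of all named genes were not counted at this filter, so these values have no background beside them. With the filter at the median level the other pathway genes had a median of -0.13, beside -0.10 for all named genes at that level. There 1 TGF-beta and 1 BMP response gene was lower by 0.5, beside 9.56% of all named genes at that level. The median of the other pathway genes turned to 0.0019 after quantile normalization. Without chromosome 10, 1 TGF-beta and 0 BMP response genes were lower by 0.5. No paired analysis was possible because each group holds 1 array.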
